A study of Homo sapiens with 3 samples.

Results

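MEIS1 binding at the HOX genes themselves was described from the peaks of a MEIS1 ChIP-seq experiment in 2 prostate carcinoma lines. A peak was taken when its annotated gene was 1 of 38 listed genes of the HOXA, HOXB, HOXC and HOXD clusters, and peaks inside a cluster whose annotated gene is a non-coding RNA were added. This gave 10 HOX-annotated peaks and 2 further cluster peaks of 5968 peaks in LV-MEIS1 cells. In HOXB13ko-LV-MEIS1 cells it gave 3 HOX-annotated peaks and 2 further cluster peaks of 2047. Each of these peaks is reported below, and the additional peaks were annotated to the long non-coding RNA HOTAIRM1 and the microRNA MIR615 in both lines. The members were not chosen on peak height or on overlap between the lines.

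HOX genes encode homeodomain transcription factors that give cells their position along the body axis, and they lie in 4 clusters in which gene order follows the order of expression from anterior to posterior. Genes at the same place in different clusters form a paralog group, numbered from 1 at the anterior end to 13 at the posterior end. MEIS1 is a homeodomain protein of the TALE class that binds DNA together with HOX and PBX proteins, and HOX clusters are themselves known targets of such complexes. HOXB13, a gene of the most posterior group, is the characteristic HOX gene of prostate epithelium, and HOXA9 is a well-known partner of MEIS1 in blood cells.

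CWR22Rv1 is an established prostate carcinoma line, raised from a xenograft that relapsed after castration of its mouse host. The LV-MEIS1 cells carry MEIS1 on a lentiviral vector and have their own HOXB13, so the antibody target included MEIS1 supplied by the vector. The HOXB13ko-LV-MEIS1 cells carry the same vector, and in addition a Cas9 transgene and a CRISPR knockout of HOXB13. That line is a recombined pool of several knockout clones, not a population of unselected cells. Chromatin was immunoprecipitated with a MEIS1 antibody 3 times from LV-MEIS1 and 2 times from HOXB13ko-LV-MEIS1 cells, and peaks were called on the pool of each line. Both pools, of 202428594 and 105763683 tags, were called against the same input of 39102495 tags, labelled as CWR22Rv1 input DNA. The paper describes input chromatin specific to each line, and the label does not say which of the CWR22Rv1 cells gave this input. Each line therefore has 1 peak list with no replicate error, so the knockout, the clones, the culture and the libraries cannot be told apart as the source of a difference between the lists. The files hold peaks and no expression, and neither the cell type nor the loss of HOXB13 was checked in them.

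The guide RNA used for the knockout is shown because its target lies close to a HOX peak described below. It is given with the adjoining 3 bases of the genome, the PAM, in capitals.

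HOXB13 guide with PAM: ttgacagcaggcatcagcgtAGG

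Its 20 bases match chr17:48728454-48728473 (hg38) on the plus strand, inside an exon of HOXB13, which is transcribed from the minus strand. The site lies 287 bp downstream of the start site of HOXB13 and 705 bp from the summit of the MEIS1 peak in the HOXB13 promoter.

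The DNA at the summits that carry the results is shown next, as 101 bases of the hg38 plus strand centred on the LV-MEIS1 summit. The HOXA6, MIR615 and HOXA9 windows lie in peaks of both lists, and the HOXB13 window in a peak of the LV-MEIS1 list alone. Capitals mark TGACA, the core of the MEIS1 site, and TTTAT, the core of the site of posterior HOX proteins, on either strand.

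HOXA6, chr7:27150976-27151076: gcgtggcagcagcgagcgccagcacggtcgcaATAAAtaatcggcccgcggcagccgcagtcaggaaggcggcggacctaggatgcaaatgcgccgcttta
MIR615, chr12:54033653-54033753: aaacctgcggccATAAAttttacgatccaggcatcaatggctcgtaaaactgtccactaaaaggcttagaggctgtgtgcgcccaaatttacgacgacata
HOXA9, chr7:27165815-27165915: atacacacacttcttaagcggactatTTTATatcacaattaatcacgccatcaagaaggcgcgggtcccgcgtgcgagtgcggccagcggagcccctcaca
HOXB13, chr17:48729128-48729228: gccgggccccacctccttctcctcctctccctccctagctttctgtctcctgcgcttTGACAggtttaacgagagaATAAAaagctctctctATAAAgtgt

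The HOXA6, MIR615 and HOXA9 windows held TTTAT and no TGACA, whereas the HOXB13 window held both words. The remaining site with a peak in both lists, HOTAIRM1, is not printed, and it held no TTTAT in either list and TGACA at its HOXB13ko-LV-MEIS1 summit.

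MEIS1 peaks were counted by cluster and paralog group. In LV-MEIS1 cells the HOX-annotated peaks belonged to 9 of the 38 listed genes: HOXA4, HOXA6, HOXA7, HOXA9 and HOXA10 in the HOXA cluster, HOXB6, HOXB9 and HOXB13 in the HOXB cluster, and HOXC13 in the HOXC cluster. In HOXB13ko-LV-MEIS1 cells they belonged to 3 of 38, namely HOXA6, HOXA7 and HOXA9. These are 23.7% and 7.89% of the listed genes, beside 14.7% and 5.64% of all 20007 protein-coding genes with an annotated peak in the respective list. The 95% Wilson intervals of the HOX shares, 13% to 39.2% and 2.72% to 20.8%, include the shares over all genes, and neighbouring genes of a cluster compete for the same peaks, so the genes are not independent.

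By paralog group, the 7 listed genes of groups 1 to 3 had 0 annotated peaks in both lists. The 15 central genes of groups 4 to 8 had 5 peaks in LV-MEIS1 and 2 in HOXB13ko-LV-MEIS1. The 16 posterior genes of groups 9 to 13 had 5 and 1. Group 6 had 3 peaks in LV-MEIS1, at HOXA6 and HOXB6, and groups 6, 7 and 9 had 1 each in HOXB13ko-LV-MEIS1. Groups 11 and 12 had 0 in both lists. These groups rest on the gene to which HOMER assigned each peak. Taking the nearest protein-coding start site of GENCODE instead moved 2 LV-MEIS1 peaks and 1 HOXB13ko-LV-MEIS1 peak into group 3, to HOXA3. Counted as genes with a peak, the central groups had 4 and 2 in the respective lists, and the posterior groups 5 and 1. Beside the shares of 14.7% and 5.64% over all protein-coding genes, groups of so few genes can hold 0 peaks without being unusual. The counts are therefore not read as a difference between groups.

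**Figure D1:**
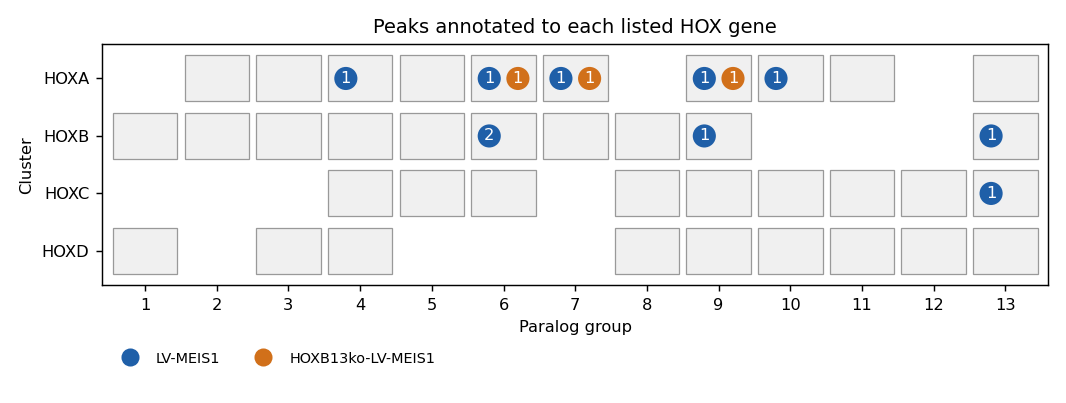
Each box is a listed HOX gene, placed by cluster (vertical) and paralog group (horizontal), and the circles give the number of peaks annotated to it in LV-MEIS1 (blue) and HOXB13ko-LV-MEIS1 cells (orange). HOXA genes of groups 6, 7 and 9 are the ones with peaks in both lines, and the HOXD row has 0 peaks.

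Counted by position, with a cluster reaching from the first to the last base of its HOX genes, 10 LV-MEIS1 summits and 5 HOXB13ko-LV-MEIS1 summits lay inside the 4 clusters. The HOXA cluster (chr7:27092993-27200091) held 6 and 4 of them, and the HOXC cluster (chr12:53938831-54056030) held 1 in each list. The HOXB cluster (chr17:48528526-48728750) held 3 in LV-MEIS1 and 0 in HOXB13ko-LV-MEIS1. The HOXD cluster (chr2:176092721-176190907) held 0 in both. The promoter peaks of HOXB13 and HOXC13 lie just beyond the outer ends of their clusters and are not in these counts. The clusters span 522.7 kb in all, so summits lay at 19.1 per Mb inside them in LV-MEIS1, beside 1.91 per Mb over the main chromosomes. The corresponding values in HOXB13ko-LV-MEIS1 were 9.57 and 0.633 per Mb. Clusters are rich in genes and CpG islands, and the density was not compared with other regions of that kind.

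Among the HOX peaks, the one annotated to HOXA6 had the highest fold enrichment in both lists. The peak annotated to HOXA6, a gene of trunk patterning, lay 3252 bp upstream of its start site. The pileup, the number of overlapping tags after the pool is scaled to the input, was 65.68 at this summit in LV-MEIS1 (chr7:27150824-27151233) and 37.71 in HOXB13ko-LV-MEIS1 (chr7:27150860-27151174). Over the local background of 3.02, fold enrichment was 16.59 and 9.63, with 1 added to both terms. These values put it at rank 10 of 5968 and rank 174 of 2047, and its q-values were 1.45e-56 and 1.93e-23. The site is a CpG island inside the HOXA3 gene body and an exon of the antisense RNA HOXA-AS3, and the summits lay 76 and 66 bp upstream of an alternative HOXA3 start site in RefSeq. HOXA3, which acts in pharyngeal arch development, thus has a strong peak at a start site although no peak was annotated to it.

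HOXA7, another gene of trunk patterning, had a peak in each list, at different places. The LV-MEIS1 peak (chr7:27152562-27152871) lay 3967 bp downstream of the HOXA7 start site, in an exon of HOXA-AS3 and 127 bp upstream of the distal start site of HOXA3, with a pileup of 35.74 and a fold enrichment of 8.35. The HOXB13ko-LV-MEIS1 peak (chr7:27156095-27156397) lay 428 bp downstream, in an exon of HOXA7 itself, with a pileup of 29.95 and a fold enrichment of 4.99. A count by gene name would treat HOXA7 as bound in both lines, but no base was covered by both peaks. At its background, the LV-MEIS1 peak would have needed a pileup of 15 to reach the lowest listed p-value of the other list, and the HOXB13ko-LV-MEIS1 peak one of 18. Signal below those levels is not seen in the lists, so the absence of a listed peak does not give a level.

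HOXA4, a gene of neck and upper trunk patterning, had the weakest of these peaks. It lay 187 bp upstream of the start site in LV-MEIS1 cells (chr7:27130889-27131130), with a pileup of 33.42 over a background of 12. Its fold enrichment of 2.65 was rank 5965 of 5968, and its q-value was 0.000271. The background here was the highest at any of the HOX peaks, and the 101 bases at the summit had a GC content of 80.2%. Listing in HOXB13ko-LV-MEIS1 would have needed a pileup of 31, close to the LV-MEIS1 value, so the lists say little about a difference at HOXA4.

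HOXB6, the paralog of HOXA6, had 2 peaks in LV-MEIS1 cells and 0 in HOXB13ko-LV-MEIS1 cells. The one 2175 bp downstream of its start site (chr17:48602652-48602930) lies in the HOXB6 gene body, with a pileup of 33.22, a background of 2.9 and a fold enrichment of 8.78. The one 116 bp upstream (chr17:48604981-48605180), had a pileup of 20.09 over the same background and a fold enrichment of 5.41. Both exceeded the pileup of 13 needed for listing in the other line, by 2.56 and 1.55 times. At MIR615, HOTAIRM1 and HOXA6, listed in both lines, the HOXB13ko-LV-MEIS1 pileup was 0.504, 0.556 and 0.574 times that in LV-MEIS1. HOXA9, at 1.29 times, went the other way. A fall as at the first 3 sites would leave the HOXB6 promoter peak unlisted, so its absence does not show a larger one.

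Among the posterior genes HOXA9 stood apart. Its promoter peak, 335 bp upstream of the start site, had the same summit base in both lists (chr7:27165552-27165980 in LV-MEIS1 and chr7:27165572-27166035 in HOXB13ko-LV-MEIS1). The pileup was 26.66 in LV-MEIS1 and 34.38 in HOXB13ko-LV-MEIS1, over a background of 4.8. Fold enrichment was 4.77 and 6.1, at the 16.3 percentile of the first list and the 56 percentile of the second. The ratio of the scaled pileups was 1.29, with a 95% exact interval of 0.981 to 1.69 that covers counting error only and includes a ratio of 1. No other posterior HOX gene had an annotated peak in HOXB13ko-LV-MEIS1 cells.

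HOXA10, HOXB9, HOXC13 and HOXB13 had annotated peaks in LV-MEIS1 alone. Apart from these and HOXA9, no listed posterior gene had an annotated peak in either list. HOXA10, known for its part in the reproductive tract, had a peak 374 bp downstream of the start site used by HOMER, though 5567 bp from the GENCODE one (chr7:27179657-27180028) with a pileup of 25.11 and a fold enrichment of 5.22. HOXB9 had one 41 bp upstream (chr17:48626409-48626652) with a pileup of 21.44 and a fold enrichment of 5.61. HOXC13, which acts in hair and nails, had one 255 bp upstream (chr12:53938438-53938693) with a pileup of 22.99 and a fold enrichment of 5.21. These are modest peaks, between the 26.3 and the 36.1 percentile of fold enrichment in the LV-MEIS1 list. The pileup needed for listing in HOXB13ko-LV-MEIS1 was 16, 14 and 15, which is 1.57, 1.53 and 1.53 times below the LV-MEIS1 values. As at the HOXB6 promoter, a fall of the size seen at MIR615, HOTAIRM1 and HOXA6 would leave these peaks unlisted.

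The HOXB13 promoter itself carried a MEIS1 peak in LV-MEIS1 cells, 429 bp upstream of the start site (chr17:48729017-48729360). Its pileup was 31.29 over a background of 6, its fold enrichment 4.61 and its q-value 4.47e-10, at the 13.3 percentile of the list. No HOXB13ko-LV-MEIS1 peak lay in the HOXB cluster, and the summit nearest to the HOXB13 start site in that list was 456837 bp away. Listing there would have needed a pileup of 20, which is 1.56 times below the LV-MEIS1 value. A fall of the size seen at MIR615, HOTAIRM1 and HOXA6 would leave this peak unlisted as well. The guide target lies outside the peak region, and edits at or around the target were not analysed here, so their part in the missing peak was not tested.

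Both additional cluster peaks were listed in each line. The peak annotated to MIR615 lay 247 bp upstream of the microRNA gene, inside the bodies of HOXC4 and HOXC5 and 653 bp downstream of the HOXC5 start site. Its pileup was 69.73 in LV-MEIS1 (chr12:54033496-54033880) and 35.12 in HOXB13ko-LV-MEIS1 (chr12:54033574-54033834), with fold enrichments of 11.79 and 6.95. The HOTAIRM1 peak, at the anterior end of the HOXA cluster, had a pileup of 43.85 in LV-MEIS1 (chr7:27095941-27096290) and 24.4 in HOXB13ko-LV-MEIS1 (chr7:27096002-27096210), with fold enrichments of 8.97 and 5.7. HOTAIRM1 is known as a regulator of HOXA genes in myeloid cells. MIR615 gives the mature microRNAs below, from RefSeq (GRCh38.p14), printed to identify the transcript beside the peak, with the seed (bases 2 to 8) in capitals.

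hsa-miR-615-5p: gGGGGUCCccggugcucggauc
hsa-miR-615-3p: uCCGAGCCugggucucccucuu

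They lie at chr12:54033967-54033988 and chr12:54034010-54034031 on the plus strand, outside the peak regions.

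**Figure D2:**
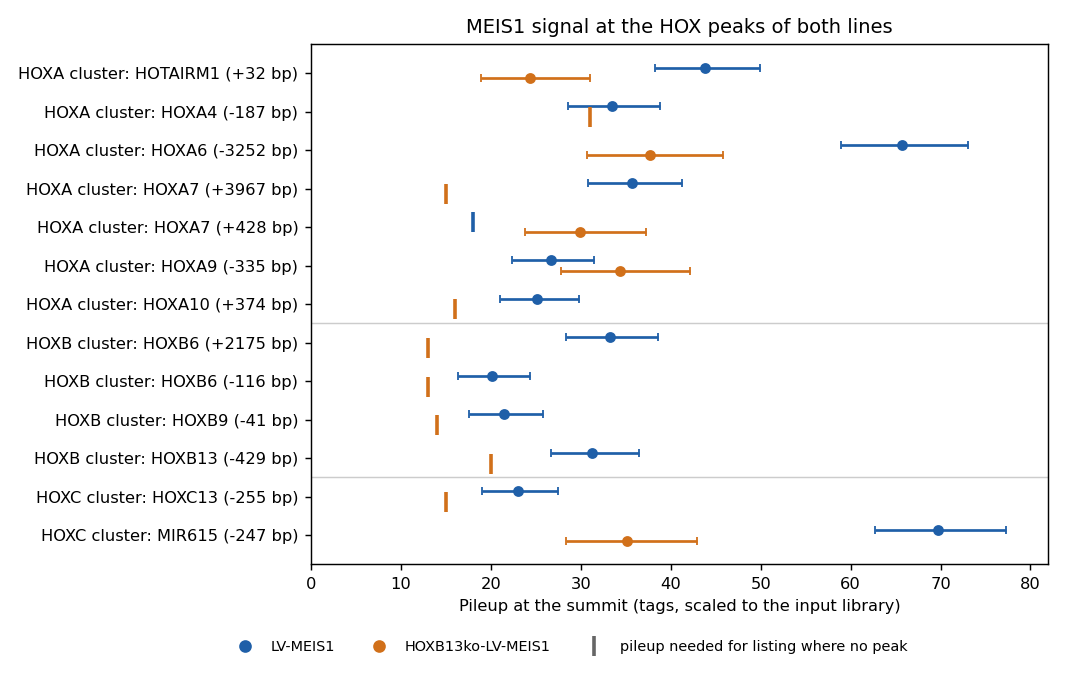
Points give the pileup at the summit, in tags scaled to the input library, for each HOX peak in LV-MEIS1 (blue) and HOXB13ko-LV-MEIS1 cells (orange), with exact Poisson 95% intervals on the recovered tags. Rows are sites by cluster, with the distance of the summit from the start site of the named gene, and vertical ticks give the pileup that listing in the line without a peak would have needed. HOXA6 and MIR615 reach 65.68 and 69.73 in LV-MEIS1, while the tick at HOXA4 (31) lies within the interval of its LV-MEIS1 value.

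Whole tags could be recovered from the pileups, and the most precise of these values rest on 361 tags at MIR615 and 340 at HOXA6 in LV-MEIS1. The least precise was HOTAIRM1 in HOXB13ko-LV-MEIS1, with 66 tags. The intervals cover counting error only. The local background was set by the shared input, and at the 9 pairs of peaks with the same summit in both lists it differed by less than 0.05 tags. Of the HOX sites, HOXA9 is among these pairs. Where the summits were some bases apart, the background differed at MIR615 (5 and 4.2) and HOTAIRM1 (4 and 3.46). At HOXA6 it was 3.02 in both lists.

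Of the 12 LV-MEIS1 peaks, 4 overlapped a HOXB13ko-LV-MEIS1 peak by at least 1 bp: HOXA6, HOXA9, HOTAIRM1 and MIR615. That is 33.3% (95% Wilson interval 13.8% to 60.9%), beside 7.66% of all LV-MEIS1 peaks. From the other side, 4 of the 5 HOXB13ko-LV-MEIS1 peaks overlapped an LV-MEIS1 peak (80%, 37.6% to 96.4%), beside 22.3% of that list. Counting HOX-annotated peaks alone, the overlap was 2 of 10 and 2 of 3, with intervals of 5.67% to 51% and 20.8% to 93.9%. Limited to promoter peaks, 11.1% of the LV-MEIS1 and 24.9% of the HOXB13ko-LV-MEIS1 peaks overlapped any peak of the other list. Among HOX-annotated promoter peaks it was 1 in either list. The higher share thus rests in part on HOTAIRM1 and MIR615, and with 12 and 5 peaks in 4 neighbourhoods these shares describe the members and are no test.

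At the 4 overlapping sites the scaled pileup in HOXB13ko-LV-MEIS1 was 0.504 times that in LV-MEIS1 at MIR615 (exact 95% interval 0.397 to 0.633). It was 0.556 times at HOTAIRM1 (0.416 to 0.735) and 0.574 times at HOXA6 (0.456 to 0.718). HOXA9, at 1.29 times, was the exception. Over all 457 overlapping pairs the median ratio was 0.713, with quartiles of 0.532 and 1.08, and 28.9% of pairs were higher in HOXB13ko-LV-MEIS1, as was 1 of the 4 HOX pairs. The ratios put MIR615, HOTAIRM1, HOXA6 and HOXA9 at the 19.9, 30.2, 32.2 and 81.8 percentiles of these pairs, all within the bulk of the distribution. The ratios depend on the scaling of each pool by its total tags, and a difference in the efficiency of immunoprecipitation between the lines was not tested.

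**Figure D3:**
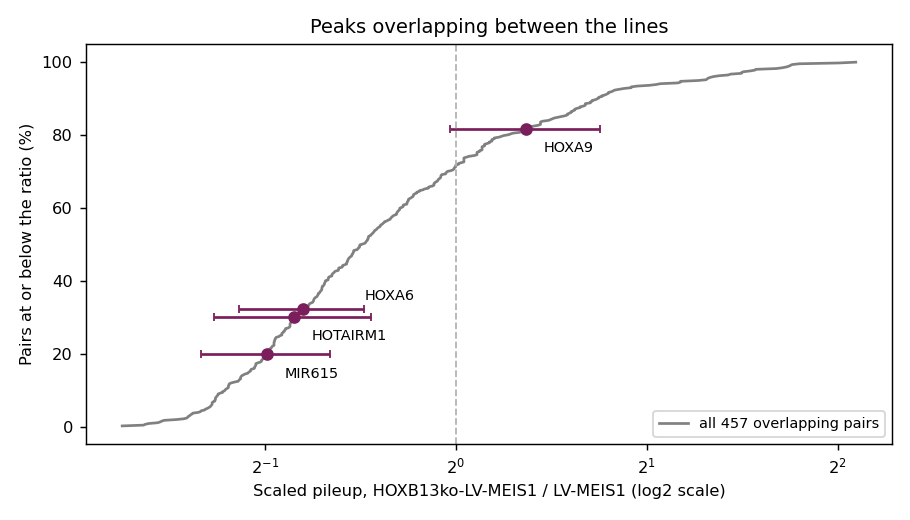
The line gives the percentage of the 457 overlapping pairs of peaks at or below each ratio of scaled pileup, HOXB13ko-LV-MEIS1 over LV-MEIS1, on a log2 axis. Points mark the HOX pairs with exact 95% intervals on their tags: MIR615, HOTAIRM1 and HOXA6 lie to the left of 1, and the interval of HOXA9 spans 1.

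Within each list the HOX peaks were not uniformly strong. The median fold enrichment was 5.51 over the 12 LV-MEIS1 peaks, beside 6.17 over the list, and 6.1 over the 5 HOXB13ko-LV-MEIS1 peaks, beside 5.85. By fold enrichment, HOXA6, MIR615, HOTAIRM1, HOXA7 and the HOXB6 gene-body peak were at or above the 80.2 percentile of the LV-MEIS1 list, and the other peaks were at or below the 36.1 percentile. Ranked by pileup instead, the median percentile of the HOX-annotated peaks moved from 28.8 to 51.8 in LV-MEIS1 and from 56 to 73.8 in HOXB13ko-LV-MEIS1. The local background at the HOX peaks, with a median of 3.8 beside 3.34 over the list, was slightly higher than that of the list.

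**Figure D4:**
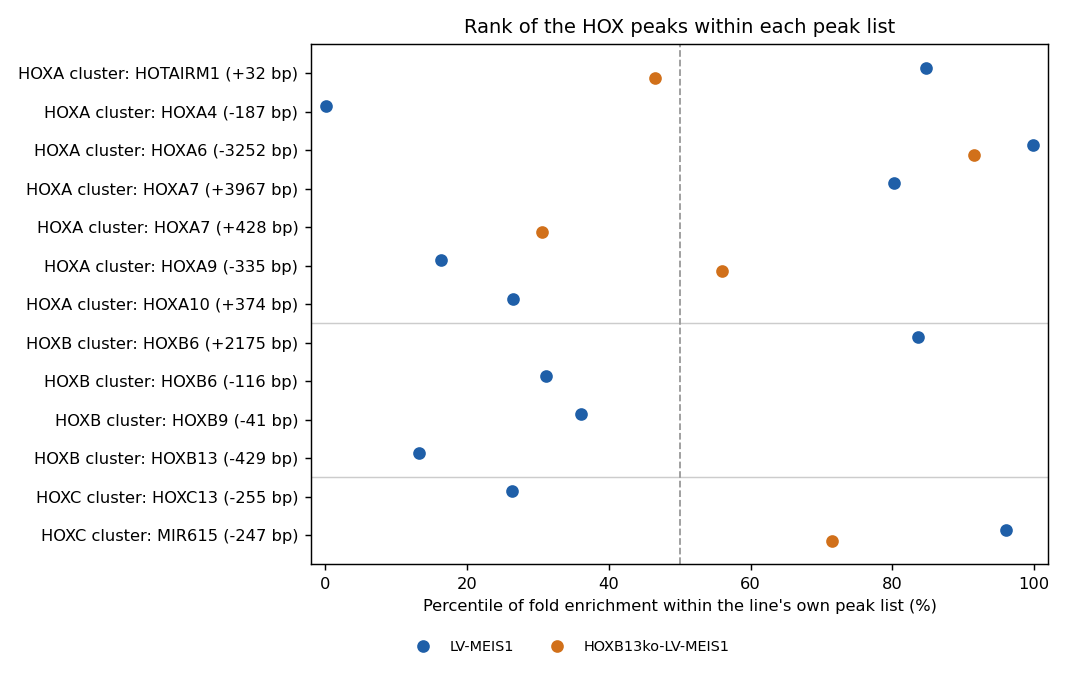
Points give the percentile of fold enrichment of each HOX peak within the peak list of its own line, LV-MEIS1 in blue and HOXB13ko-LV-MEIS1 in orange, with rows as in the plot of pileups and a dashed line at 50%. HOXA6 is near the top of both lists (99.8 and 91.5), and HOXA4 is near the bottom of the LV-MEIS1 list (0.067).

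The HOX peaks lay close to start sites. Peaks were taken by HOX gene or cluster, where start sites are closely spaced, so short distances and promoter placement were favoured beforehand. The values of the whole lists are given beside them as description only. The median distance from summit to the annotated start site was 295 bp for the 12 LV-MEIS1 peaks, beside 23121 bp over the list, and 335 bp for the 5 HOXB13ko-LV-MEIS1 peaks, beside 10517 bp. HOMER placed 8 of 12 and 3 of 5 in promoters, beside 20.2% and 24.5% of the lists. The peak annotated to HOXA6 was the CpG island peak among them in both lists. Measured from the GENCODE start sites, 8 of the 38 listed genes (21.1%, 95% Wilson interval 11.1% to 36.3%) had an LV-MEIS1 summit within 1 kb, beside 6.75% of protein-coding genes. In HOXB13ko-LV-MEIS1 it was 3 of 38 (7.89%, 2.72% to 20.8%), beside 2.73%. The 3 were HOXA7, HOXA9 and HOXC5, the last through the peak annotated to MIR615.

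Away from these sites the distance to the nearest summit differed by cluster. Over the main chromosomes summits lay at 1.91 per Mb in LV-MEIS1 and 0.633 per Mb in HOXB13ko-LV-MEIS1. Summits are thus sparse in both lists, and the distances were not compared with those of other genes. Every listed HOXA gene had a summit within 20204 bp in LV-MEIS1 and within 25578 bp in HOXB13ko-LV-MEIS1, with HOXA13 the farthest in both. In the HOXB cluster the nearest HOXB13ko-LV-MEIS1 summit, the same for all its listed genes, was between 456837 bp (HOXB13) and 654576 bp (HOXB1) away. In the HOXD cluster the order of the lines was the other way round: the nearest LV-MEIS1 summit was between 859467 bp (HOXD13) and 955414 bp (HOXD1) away, and the nearest HOXB13ko-LV-MEIS1 summit between 12098 and 108045 bp. That summit belongs to a peak annotated to EVX2, a homeobox gene beside HOXD13, with a fold enrichment of 4.99 (chr2:176080518-176080739). A peak annotated to EVX1, its counterpart beside HOXA13, also appeared in HOXB13ko-LV-MEIS1 alone, 25578 bp from the cluster with a fold enrichment of 4.41. EVX1 and EVX2 are not HOX genes and were singled out after their values were seen.

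**Figure D5:**
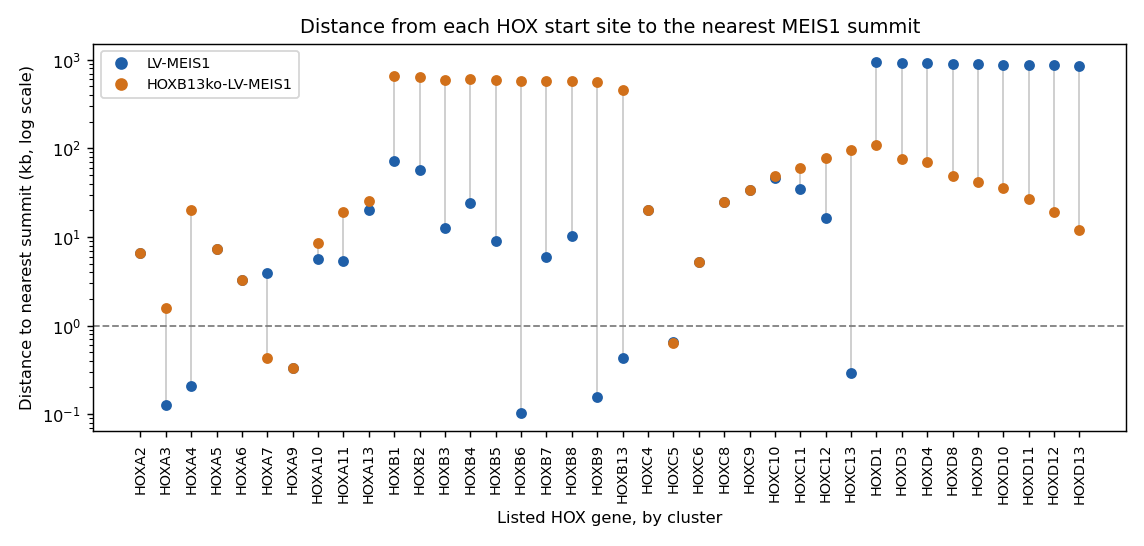
Points give the distance in kb, on a log axis, from the GENCODE start site of each listed HOX gene to the nearest MEIS1 summit in LV-MEIS1 (blue) and HOXB13ko-LV-MEIS1 cells (orange), and the dashed line marks 1 kb. HOXB genes are far from any HOXB13ko-LV-MEIS1 summit and HOXD genes are far from any LV-MEIS1 summit, while HOXA genes lie near summits of both lists. All listed HOXB genes share the same nearest HOXB13ko-LV-MEIS1 summit, and all listed HOXD genes share the same nearest summit within each list. Those points are therefore not independent. Summits are sparse over the main chromosomes (1.91 per Mb in LV-MEIS1 and 0.633 per Mb in HOXB13ko-LV-MEIS1), and distances at other genes were not compared.

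Short words were counted under the summits. TGACA was searched as these 5 letters on both strands within 50 bp of the summit, and 3 of the 12 LV-MEIS1 windows held it (HOXB13 and HOXA10 among them; 25%, 95% Wilson interval 8.89% to 53.2%). Over all LV-MEIS1 peaks the share was 56.1%, and over promoter peaks 55.2%. In HOXB13ko-LV-MEIS1, 1 of the 5 windows held it, that of HOTAIRM1, beside 16.8% of the list. The HOTAIRM1 summit of LV-MEIS1 lies 19 bp away, and its window just misses the word. The HOXA6 and MIR615 windows printed above, at the strongest HOX peaks, have no such word.

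The posterior HOX core TTTAT, searched in the same way, was in 8 of the 12 LV-MEIS1 windows (66.7%, 39.1% to 86.2%), beside 45.8% of the list and 11.2% of promoter peaks. MIR615, HOXB13, HOXA6, HOXA7 and HOXA9 were among the 8. In HOXB13ko-LV-MEIS1 it was in 3 of 5 windows (60%, 23.1% to 88.2%), those of MIR615, HOXA6 and HOXA9, beside 13% of the list and 4.58% of promoter peaks. Windows of the same width centred 500 bp before and after the summit held it at 2 and 1 of the 12 LV-MEIS1 sites, and at 0 and 0 of the 5 HOXB13ko-LV-MEIS1 sites. Over all LV-MEIS1 peaks the flanking windows held it at 33.3% and 32.6%, and at promoter peaks at 19% and 16.8%. Over the HOXB13ko-LV-MEIS1 list the flanking shares were 23.9% and 24.3%, and at its promoter peaks 15.3% and 16.9%. In that list, and at promoter peaks of both lists, the flanks thus held it more often than the summits. With 12 and 5 sites the lower HOX flanks are description only. The general PBX and HOX word TGATNNAT was in 3 LV-MEIS1 windows (HOXA9 and HOTAIRM1 among them; 17.7% of the list) and in 2 of the 5 HOXB13ko-LV-MEIS1 windows (HOXA9 and HOTAIRM1; 4.49% of the list).

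CTCNTAAA, an extended posterior HOX word that was chosen after the HOX sequences had been seen, was in 3 of the 12 LV-MEIS1 windows, those of MIR615 and HOXA7 among them, and in 3.84% of the list. The median GC content of the 12 windows was 52.5%, between the 42.6% of all LV-MEIS1 peaks and the 62.4% of promoter peaks. A word match describes the sequence and is not evidence that a HOX or MEIS1 protein sits there.

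Other genes of the pathway were counted by annotated peaks. Of 9 genes of the TALE class that MEIS1 belongs to or pairs with, 6 had a peak in LV-MEIS1 and 0 in HOXB13ko-LV-MEIS1. MEIS1 itself was among the 6, with a peak 65 bp from its start site and a fold enrichment of 7.35. Of 13 other homeobox genes of the HOX-like class, 1 (MEOX1) and 2 (EVX1 and EVX2) had one. Of 21 genes for regulators of HOX clusters, such as Polycomb and Trithorax proteins and retinoic acid receptors, 6 and 3 had one. The 3 were KMT2A, KMT2D and RNF2, and the KMT2A peak, 125 bp upstream of the start site of this histone methyltransferase gene, had a fold enrichment of 9.6 in HOXB13ko-LV-MEIS1 cells. None of these genes had a peak in both lists, and those named here were chosen after their values were seen. The shares of 14.7% and 5.64% of all protein-coding genes are the background here as well.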

How the data were processed

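The authors trimmed reads, removed duplicates with Picard 2.18.10, aligned to hg38 with Bowtie2, pooled the immunoprecipitations of a line, called peaks with MACS2 2.1.2 at a q-value of 0.01 and annotated summits with HOMER 4.9.1. The deposited signal is the pileup of tags extended to 200 bp, which the authors scaled to the input by 0.193 and 0.37. Fold enrichment is deposited as a ratio, pileup over local background with 1 added to both. The deposited p-value and q-value are −log10 values. The distance from summit to start site in bp is another deposited value.

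Dividing pileup by the scale gave whole tags (within 0.05) for 12 of 12 and 5 of 5 HOX peaks. Recomputed −log10 p-values lay within 0.05 of the deposited ones for 99.2% and 99.7% of peaks. The pileup needed for listing is the smallest that reaches the lowest −log10 p-value of the other list (5.14 or 5.54), and the minimum width is not considered. GENCODE release 44 and hg38 gave positions and sequences. Some summit sequences are not reported here. RefSeq promoter entries matched 20 of the 38 genes. Of the human HOX genes, 1 is not among those listed and was not analysed here.

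The study describes more LV-MEIS1 peaks than the list used here holds, and overlaps and absences refer to this list. With 1 pooled list per line no test was run. Shares have 95% Wilson intervals. Every listed gene with a peak and every gene of a further cluster peak is named. Members and lists were chosen with earlier results of these data known. Overlap and word scripts were tested on simulated data. Alternatives were stricter lists, other overlap rules, cluster limits, gene assignments and windows. Computations used Python 3.11.15 with pandas 2.3.3, numpy 2.4.6, pysam 0.24.0, matplotlib 3.10.9 and scipy 1.17.1.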

Additional observations from a re-analysis of the deposited data

How the results depend on the processing

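Of 98 alternative values, 72 stayed within 1.5 times of the count, or within the interval of the share, or, for the median percentile ranked by pileup, within 1 SD over the peaks, and 26 moved further. No paired analysis was possible because each line has 1 pooled peak list. With clusters extended by 20 kb, the HOXC cluster held 2 LV-MEIS1 peaks and the HOXD cluster 1 HOXB13ko-LV-MEIS1 peak. With the nearest protein-coding start site in place of the HOMER gene, LV-MEIS1 paralog groups 3, 5, 7 and 10 had 2, 1, 0 and 0 peaks, and HOXB13ko-LV-MEIS1 groups 3, 5 and 6 had 1, 1 and 0. With overlap limited to LV-MEIS1 peaks of at least 5-fold enrichment, 1 HOX-annotated HOXB13ko-LV-MEIS1 peak overlapped, and limited to promoter peaks it was 1 in either list; these promoter, flanking-window and CTCNTAAA alternatives were chosen after seeing the data. In windows 500 bp before and after the summit, LV-MEIS1 shares were 8.33% (before) for TGACA, 16.7% and 8.33% for TTTAT, 8.33% and 0% for TGATNNAT and 0% and 0% for TGATTTAT. In HOXB13ko-LV-MEIS1 the share for TGACA after the summit was 0%, and those for TTTAT and TGATNNAT were 0% on either side. Windows of 100 bp to either side of the summit moved no share out of its interval. The whole-list overlap moved to 11.1% and 24.9% at promoters. Depth limits what is listed: a HOX site below a pileup of 13 to 31 in HOXB13ko-LV-MEIS1 would not appear. The cause of these changes was not tested.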
